A study of Mus musculus with 18 samples.

Results

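The genes described here encode the classical contact and secreted axon guidance cues and their receptors: the Eph receptors and ephrins, the Slits and Robos, the netrins and netrin Gs with Dcc, Neo1, Draxin and the Unc5 receptors, and the Flrt proteins. Members were chosen by gene symbol, with earlier results of these data known, and 45 of the 55385 genes in the deposited count tables matched. They comprise 9 Eph A receptors, 5 Eph B receptors, 5 A-type ephrins, 3 B-type ephrins, 3 Slits, 4 Robos, 4 netrins, 2 netrin Gs, 4 Unc5 receptors, the group of Dcc, Neo1 and Draxin (3 genes) and 3 Flrt genes. Expression was followed in the mouse hippocampus with and without the chromatin remodelling subunit Arid1a.

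All mice were on the C57BL/6 strain and the tissue was hippocampus. RNA-seq covered postnatal day 21 (P21), with 2 wild-type (WT) and 2 Arid1a conditional knockout (cKO) libraries, and embryonic day 16.5 (E16.5), with 3 of each genotype. Chromatin immunoprecipitation sequencing (ChIP-seq) at 3 weeks used 1 library per genotype for each of 3 histone marks: H3K4me3, found at active and poised promoters, H3K27ac, found at active promoters and enhancers, and H3K27me3, the mark laid down by Polycomb. The labels name neither the Cre driver nor the cells in which Arid1a was deleted, and they do not say whether animals were pooled. The series design calls the RNA replicates biological, and the ChIP-seq had none. The libraries held 17662335 to 20332148 estimated counts. Arid1a (chr4:133679008-133756769, GRCm38) was at 215 and 205 CPM (counts scaled to library size) in WT and 110.0 and 89.2 CPM in cKO at P21, and at 262, 282 and 285 CPM in WT and 180.0, 175 and 176 CPM in cKO at E16.5. It fell at both ages (log2 changes of -1.08 and -0.64, edgeR adjusted p = 0.00507 and 0.0320). All 10 hippocampal identity genes on the fixed list (Emx1, Lhx2, Zbtb20 and others) were detected in every RNA library. By their Xist counts, each genotype had the same number of male libraries and of female libraries at each age. At E16.5 the library of cKO replicate 1 stood apart from the other 5, and embryonic calls are given with and without it.

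Eph receptors are receptor tyrosine kinases that bind membrane-tethered ephrins on a neighbouring cell, and both partners can signal. Secreted Slits repel axons through Robo receptors, while netrins attract axons through Dcc and repel them when Unc5 receptors take part. Flrt proteins bind Unc5 receptors and latrophilins. In the hippocampus these systems are known for sorting afferents into layers and, later, for shaping dendritic spines and synapses, with B-type Eph receptors acting at excitatory synapses.

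Upstream sequences are shown for the 3 members lower in cKO at P21 whose annotated start was the outer end of the gene. The histone marks described further on played no part in this choice. No annotated transcript of the same gene covers these stretches. Each is the 250 bases before the annotated start (RefSeq, GRCm38.p6), written 5′ to 3′ on the gene's strand, with the CG dinucleotides in capitals. Unc5b lies on the minus strand (chr10:60831582-60831831), Ephb1 on the minus strand (chr9:102354694-102354943) and Ntn5 on the plus strand (chr7:45683772-45684021).
Unc5b: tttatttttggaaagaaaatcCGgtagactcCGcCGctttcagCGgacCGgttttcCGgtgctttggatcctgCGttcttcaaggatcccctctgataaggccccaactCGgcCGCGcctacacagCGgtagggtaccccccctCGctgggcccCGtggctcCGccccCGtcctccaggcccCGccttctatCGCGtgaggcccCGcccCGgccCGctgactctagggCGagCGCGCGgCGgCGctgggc
Ephb1: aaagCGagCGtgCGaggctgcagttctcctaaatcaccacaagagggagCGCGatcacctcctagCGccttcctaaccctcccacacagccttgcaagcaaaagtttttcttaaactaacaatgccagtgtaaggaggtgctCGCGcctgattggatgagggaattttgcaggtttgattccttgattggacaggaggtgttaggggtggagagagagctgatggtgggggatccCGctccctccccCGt
Ntn5: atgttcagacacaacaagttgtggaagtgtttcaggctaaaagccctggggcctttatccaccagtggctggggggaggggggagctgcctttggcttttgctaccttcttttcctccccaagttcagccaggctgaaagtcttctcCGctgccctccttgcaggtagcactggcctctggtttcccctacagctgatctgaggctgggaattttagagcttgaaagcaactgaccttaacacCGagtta
The Unc5b stretch holds 27 CG dinucleotides, the Ephb1 stretch 10 and the Ntn5 stretch 2. A CG reads the same on both strands. Over the 12219 tested genes with an annotated start, the same window held a median of 16 CG, and 98.9% of the windows had at least 1. The starts of Unc5b and Ephb1 carried an H3K27me3 peak in the cKO list only, and the start of Ntn5 carried no peak of any mark in either genotype.

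At P21, 8 of the 45 guidance genes were lower in cKO and none was higher. The 8 were the Robo receptor Robo3, the Eph receptors Ephb2, Ephb1 and Epha6, the ephrin Efnb3, the receptor Unc5b, and the secreted factors Draxin and Ntn5. All 45 genes passed the filter on low counts and were tested. Calls rest on edgeR's quasi-likelihood test with Benjamini-Hochberg adjustment over 17407 genes and a threshold of 0.05, which called 3.91% of all tested genes lower and 2.81% higher (680 and 489 genes). At an unadjusted p under 0.05, 11 members were lower and 4 higher, against 13.2% and 11.7% of all tested genes. DESeq2 called 7 members lower and 0 higher, against 4.96% and 2.85% of all genes. The authors' deposited table, made with DESeq2 from the same libraries and so not a separate check, gave 7 lower and 0 higher. The median log2 change was -0.16 over the members and 0.01 over all tested genes, and 29 members had a negative and 16 a positive value. In 18 members both cKO libraries lay below both WT libraries, and in 9 both lay above, whereas 27.9% and 28.2% of all tested genes did so. With upper-quartile scaling the split of all calls changed to 519 lower and 570 higher genes, and 5 members were lower. A single fit of all 10 libraries called 4 members lower, where 350 of 18979 genes were lower. Leaving out 1 library at P21 leaves 1 in its genotype. The number called lower then fell without either WT library and rose without either cKO library, among members and among all genes. The members' median log2 change in those fits lay between -0.18 and -0.13.

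**Figure D1:**
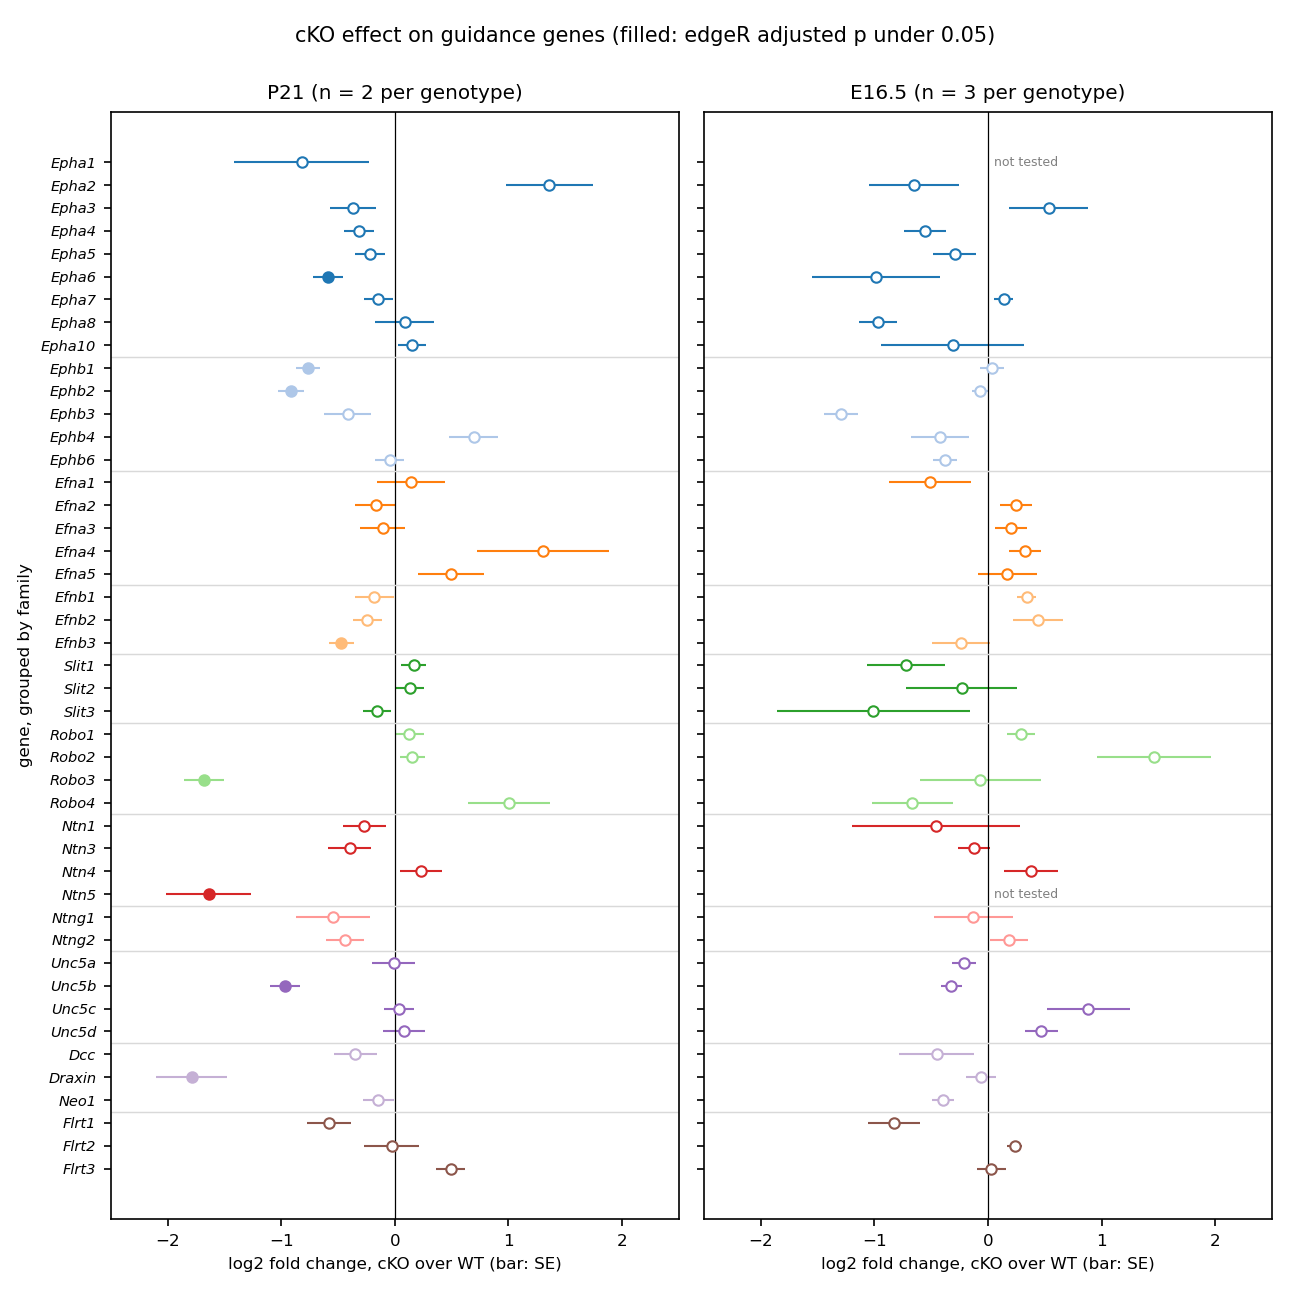
Log2 fold change of each guidance gene, cKO over WT, at P21 (left, 2 libraries per genotype) and E16.5 (right, 3 per genotype), grouped by family. Bars are approximate standard errors and filled symbols mark an edgeR adjusted p under 0.05. The 8 filled symbols all lie left of 0 at P21, from -1.79 (Draxin) to -0.47 (Efnb3), and no symbol is filled at E16.5.

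Of the B-type Eph receptors, Ephb2 and Ephb1 were lower in cKO and the other 3 did not pass the test. Ephb2 (chr4:136647536-136836326) clusters NMDA receptors at synapses. Its level was 37.8 and 39.3 CPM in WT and 20.5 and 20.5 CPM in cKO, for a log2 fold change of -0.91 (SE 0.11, edgeR adjusted p = 0.00656). Ephb1 (chr9:101922128-102354693), a related receptor for B-type ephrins, stood at 48.5 and 48.0 CPM in WT and 28.7 and 28.1 CPM in cKO. Its log2 change was -0.76 (SE 0.11, edgeR adjusted p = 0.00881). For both genes the replicates of a genotype nearly coincided and the genotypes did not overlap. Ephb3 had a log2 value of -0.42 and Ephb6 of -0.05. Ephb4, which in vessels pairs with Efnb2 on veins and arteries, was at 4.96 and 3.91 CPM in WT and 7.18 and 7.17 CPM in cKO (log2 0.69, SE 0.22, edgeR adjusted p = 0.0989).

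Among the 9 A-type receptors Epha6 passed the test. Epha6 (chr16:59641433-60610911) had 28.0 and 26.9 CPM in WT against 16.9 and 19.7 CPM in cKO, so that the lower WT library lay above the higher cKO library. The log2 change was -0.59 (SE 0.13, edgeR adjusted p = 0.0418). Epha4, a receptor which binds both A-type and B-type ephrins, was at 310 and 392 CPM in WT and 278.5 and 284 CPM in cKO (log2 -0.32, SE 0.13, edgeR adjusted p = 0.183). Counts were not scaled to transcript length, so levels are compared within a gene and not between genes. Epha2 had the highest log2 value of all members, at 1.36 (SE 0.38, edgeR adjusted p = 0.0760), on 1.002 and 0.652 CPM in WT and 2.41 and 1.86 CPM in cKO. The log2 values of the remaining 6 A-type receptors ranged from -0.82 (Epha1) to 0.15 (Epha10).

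Of the ephrins, the ligands of these receptors, 1 of 8 was lower. Efnb3 (chr11:69554092-69561150), a transmembrane ephrin of postsynaptic and midline cells, was at 221 and 199 CPM in WT and 157 and 146 CPM in cKO. The genotypes did not overlap and the log2 change was -0.47 (SE 0.11, edgeR adjusted p = 0.0453). Efnb1 and Efnb2 had log2 values of -0.18 and -0.24. The 5 A-type ephrins, which are anchored by a lipid tail, lay between -0.17 and 1.30, with no call. The highest value belonged to Efna4, which had 6 and 3 counts in WT and 11 and 12 counts in cKO (edgeR adjusted p = 0.214).

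Robo3 (chr9:37416045-37433436), a receptor best known from commissural axons that cross the midline, had the lowest adjusted p of all members. Its WT libraries gave 49.4 and 36.2 CPM and its cKO libraries 14.3 and 12.4 CPM, with no overlap and a wider spread in WT than in cKO. Robo3 fell by 1.68 on the log2 scale (SE 0.18, edgeR adjusted p = 0.00349). Its neighbour Robo4 (chr9:37401902-37414023), a receptor of endothelial cells, was at 10.4 and 5.06 CPM in WT and 13.1 and 17.9 CPM in cKO (log2 1.004, SE 0.36, edgeR adjusted p = 0.169). Robo1 and Robo2, the main Slit receptors of the forebrain, had log2 values of 0.13 and 0.16, and their genotypes overlapped. The Slit ligands lay between -0.16 and 0.17 with no call. The Slit with the lowest p, Slit1, was at 213 and 185 CPM in WT and 218 and 229 CPM in cKO (log2 0.17, SE 0.11, edgeR adjusted p = 0.405).

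Draxin, Unc5b and Ntn5 were the members of the netrin system that passed the test. Draxin (chr4:148098437-148131139), a secreted repellent that binds Dcc and netrin, had 5.01 and 3.51 CPM in WT and 1.30 and 1.15 CPM in cKO. Each cKO library was below each WT library, and the log2 change was the lowest of all members at -1.79 (SE 0.31, edgeR adjusted p = 0.0196). The receptors Dcc and Neo1 had log2 values of -0.35 and -0.15. Unc5b (chr10:60762594-60831581), a netrin receptor that is also prominent in vessels, stood at 26.1 and 24.1 CPM in WT and 12.8 and 12.9 CPM in cKO. The replicates lay close together, the genotypes far apart, and the log2 change was -0.97 (SE 0.13, edgeR adjusted p = 0.00817). Unc5a, Unc5c and Unc5d had log2 values between -0.01 and 0.08. Ntn5 (chr7:45684022-45694556), a netrin family member, was low in all libraries, at 39 and 38 counts in WT and 11 and 14 counts in cKO (1.95, 1.91, 0.530 and 0.702 CPM). Its log2 change was -1.64 (SE 0.38, edgeR adjusted p = 0.0437), and DESeq2 gave an adjusted p of 0.150.

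None of the other netrins, netrin Gs or Flrt genes passed the test. Ntn1, the canonical secreted netrin, was at 9.16 and 7.92 CPM in WT and 6.65 and 7.52 CPM in cKO (log2 -0.27, SE 0.19, edgeR adjusted p = 0.422). Both netrin Gs, lipid-anchored synaptic proteins, had negative log2 values. Ntng2 was at 34.7 and 26.4 CPM in WT and 20.4 and 24.5 CPM in cKO, with no overlap (log2 -0.44, SE 0.17, edgeR adjusted p = 0.153). Of the Flrt genes, Flrt3 came closest to a call, and it was higher: 31.3 and 36.5 CPM in WT and 50.8 and 44.4 CPM in cKO (log2 0.49, SE 0.13, edgeR adjusted p = 0.0614). Flrt1 had a log2 value of -0.58 and Flrt2 of -0.02.

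**Figure D2:**
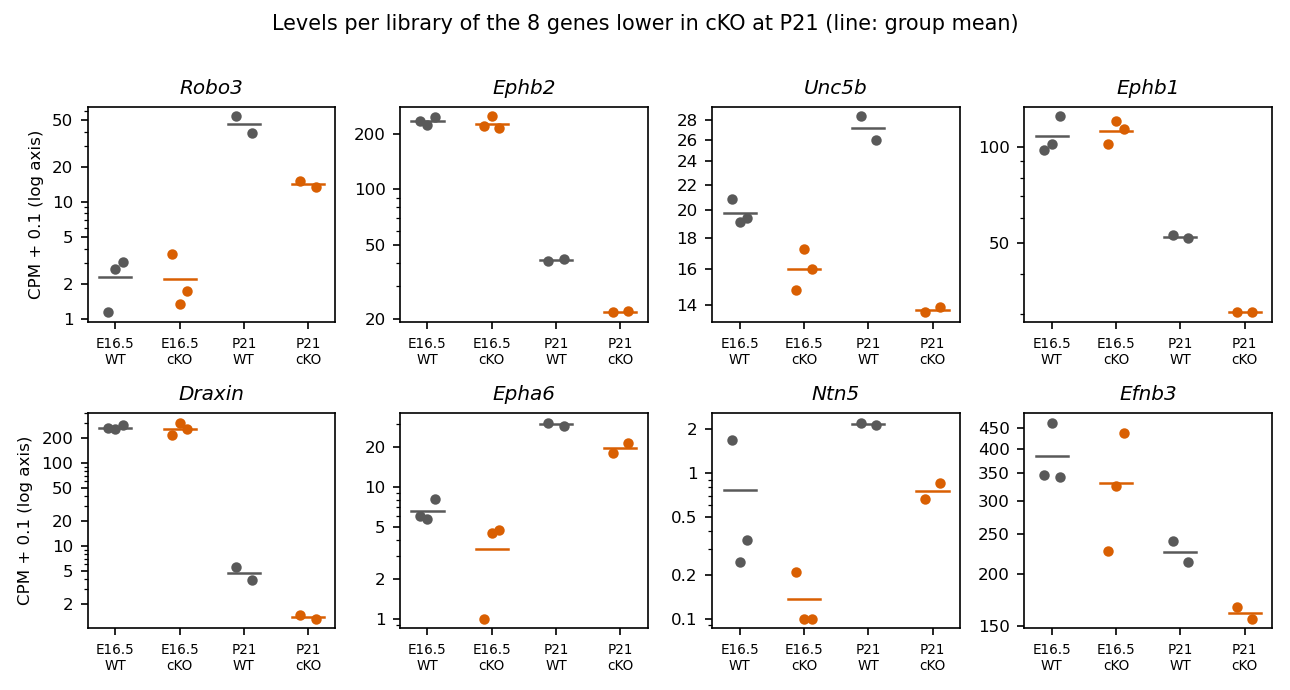
Level of the 8 genes lower in cKO at P21 in each of the 10 RNA libraries, as CPM scaled over all 10 libraries plus 0.1 on a log axis; points are libraries and lines are group means. All 8 genes separate by genotype at P21, and Ephb2, Ephb1, Draxin, Robo3 and Efnb3 overlap at E16.5. In WT, Robo3 and Epha6 are higher at P21 than at E16.5.

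Several cell type marker lists moved with genotype at P21, and their part in the guidance gene results was not tested. In bulk tissue fewer cells of a type and less RNA per cell cannot be told apart. All 6 oligodendrocyte markers were lower (summed level 5837 and 6198 CPM in WT, 3712 and 3485 in cKO), as were all 4 microglial markers (162 and 154 against 78.5 and 77.0) and 6 of 8 dentate granule neuron markers (478 and 514 against 241 and 244). Of 11 striatal markers 3 were higher and 0 lower (164 and 187 against 243 and 346), and of 6 CA2 and CA3 markers 3 were higher (324 and 296 against 365 and 379). Choroid plexus and ependymal markers reached 3560 CPM in cKO replicate 1, against 1015 to 1391 CPM in the other libraries. Most of each sum was Ttr (1304 and 1077 CPM in WT, 3429 and 949.5 in cKO), which was not called (edgeR adjusted p = 0.610). The 2 of 6 called higher were Foxj1 (8.71 and 7.22 CPM in WT, 21.2 and 16.1 in cKO) and Tmem212 (0.651 and 0.501 CPM in WT, 1.83 and 2.21 in cKO). For vessels, where Unc5b, Robo4, Ephb4 and Efnb2 are known to act, 2 of 5 endothelial markers were higher and 1 lower (113 and 100.4 against 148 and 116). The hippocampal identity list had 1 higher and 3 lower of 10 (1756 and 1780 against 1534 and 1819), the astrocyte list 2 lower of 5 (1113 and 1073 against 1127 and 1134), and the CA1 list 1 higher of 5 (479 and 467 against 636 and 962). Some lists share genes. Wfs1 was the higher gene of both the CA1 and the hippocampal identity list, and Prox1 was among the lower genes of both the dentate granule neuron and the hippocampal identity list. The meningeal list had 1 lower of 4 (62.4 and 55.0 against 56.1 and 60.4), the Cajal-Retzius and hem list 1 higher of 4 tested (72.2 and 72.4 against 62.6 and 62.3), and the thalamic list 1 higher of 3 tested (71.5 and 63.8 against 109 and 71.3). At P21 the only listed markers at 0 counts in a library were Gbx2 in WT replicate 1 and Lhx5 in cKO replicate 2.

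Some members lie near Arid1a or overlap other genes. Ephb2 lies 2.89 Mb from Arid1a on chromosome 4, Epha8 3.17 Mb, Epha2 7.54 Mb, Epha10 8.76 Mb and Draxin 14.3 Mb. A genotype at Arid1a and DNA linked to it cannot be told apart for these genes. Within 10 Mb of Arid1a 11.0% of 281 tested genes were called at P21, against 6.85% of the other genes with coordinates. Draxin overlaps Mad2l2 and Ntn5 overlaps Sec1, and the sources used here do not say whether counting used strand, so reads of such neighbours may be shared.

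In the embryo no guidance gene passed edgeR's test. Of the 45 members 43 were tested at E16.5, since Epha1 (1 to 28 counts per library) and Ntn5 (0 to 32 counts) did not pass the filter. The same test called 0.112% of 16958 genes lower and 0.0118% higher (19 and 2 genes). At an unadjusted p under 0.05, 7 members were lower and 4 higher, against 11.5% and 9.13% of all tested genes. Without cKO replicate 1 the edgeR fit tested 44 members and again called 0. The genotypes did not overlap in 11 members lower in cKO and 6 higher, against 15.3% and 14.0% of all tested genes. DESeq2 called 5 members lower (Ephb3, Epha8, Neo1, Flrt1 and Epha4) and 2 higher (Efnb1 and Unc5d), against 4.26% and 2.09% of all genes. The authors' deposited table, made with DESeq2 from the same libraries, listed the same 7. After leaving out cKO replicate 1, DESeq2 called Ephb3, Epha8 and Neo1 lower and no member higher, against 2.93% and 1.50% of all genes.

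The receptor Ephb3 (chr16:21204620-21223309) showed the widest gap among the DESeq2 calls. It was at 35.0, 28.1 and 35.1 CPM in WT and 11.1, 13.7 and 15.2 CPM in cKO, for a log2 fold change of -1.30 (SE 0.15, edgeR adjusted p = 0.0523, DESeq2 adjusted p = 1.61e-09). Epha8 (chr4:136929419-136956859), an A-type receptor, was at 30.2, 25.8 and 28.4 CPM in WT and 11.0, 14.9 and 16.99 CPM in cKO (log2 -0.97, SE 0.17, edgeR adjusted p = 0.119, DESeq2 adjusted p = 0.000121). In both genes all cKO libraries lay far below all WT libraries. At P21 the log2 values were -0.42 for Ephb3 and 0.09 for Epha8, and the difference between ages did not pass the test (edgeR adjusted p = 0.172 and 0.136). Neo1, a Dcc-like receptor for netrins and repulsive guidance molecules, was at 353, 320.1 and 350.4 CPM in WT and 227, 267 and 284 CPM in cKO (log2 -0.40, SE 0.10, edgeR adjusted p = 0.147, DESeq2 adjusted p = 0.0151). Epha4 was at 248, 191 and 268 CPM in WT and 128, 187 and 165.2 CPM in cKO, where the highest cKO library nearly reached the lowest WT library (DESeq2 adjusted p = 0.0484).

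Flrt1 was at 16.9, 13.2 and 16.6 CPM in WT and 6.23, 11.1 and 8.94 CPM in cKO (log2 -0.83, edgeR adjusted p = 0.166, DESeq2 adjusted p = 0.0331). Efnb1, the X-linked ephrin, was at 122, 117 and 127 CPM in WT and 169.8, 154 and 139 CPM in cKO (log2 0.34, SE 0.08, edgeR adjusted p = 0.151, DESeq2 adjusted p = 0.0243). Unc5d, a receptor of migrating cortical neurons, was at 38.0, 46.8 and 34.8 CPM in WT and 59.5, 59.3 and 46.9 CPM in cKO (log2 0.47, SE 0.14, edgeR adjusted p = 0.180, DESeq2 adjusted p = 0.0493). In Flrt1, Efnb1 and Unc5d the genotypes did not overlap, although in Unc5d the gap between the highest WT and the lowest cKO library was small. No Slit passed either test at E16.5. The log2 values were -0.72 for Slit1, -0.23 for Slit2 and -1.01 for Slit3, and without cKO replicate 1 they were -0.55, 0.19 and -0.44, so that Slit2 turned positive.

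The library of cKO replicate 1 was set apart by many guidance genes. It was the highest of the 6 libraries in 16 members and the lowest in 18, which is 79.1% of the 43 tested, against 59.1% of all tested genes. Slit3 was at 0.617 CPM there and at 10.2 to 17.4 CPM in the other 5 libraries. Dcc was at 40.7 CPM against 98.1 to 113 CPM, and Robo2 at 200.4 CPM against 30.2 to 105 CPM. The CA1 marker list summed to 914 CPM in this library, against 221 to 388 CPM in the others. WT replicate 1 was high in meningeal markers (700.3 CPM, against 80.7 and 158 in WT and 6.95 to 47.4 in cKO) and endothelial markers (249 CPM, against 120 and 126 in WT and 91.2 to 97.9 in cKO). Choroid plexus and ependymal markers summed to 4761, 3211 and 37.7 CPM in WT and 8.30, 40.8 and 2448 CPM in cKO. Folr1 was at 0 counts in cKO replicate 1 only, and Tmem212 was at 0 in every E16.5 library except WT replicate 3. Other marker lists differed with genotype at E16.5, where edgeR called no listed marker and DESeq2 called several. Microglial markers summed to 90.1, 46.9 and 50.7 CPM in WT and 22.8, 29.2 and 31.3 CPM in cKO, with all 4 lower at an unadjusted edgeR p under 0.05 and 3 lower by DESeq2. Astrocyte markers summed to 353, 357 and 356 CPM in WT and 179, 221 and 234 CPM in cKO, with 2 of 4 tested lower by DESeq2. Of the Cajal-Retzius and hem markers 2 of 5 were lower by DESeq2 (445, 384 and 446 CPM in WT, 235, 376 and 324 CPM in cKO), as were 2 of 5 endothelial and 3 of 4 meningeal markers. On each of the lists for dentate granule neurons, thalamus and hippocampal identity DESeq2 called 1 marker lower, and it called 1 higher on the striatal and on the hippocampal identity list. Prox1 is on both the dentate granule neuron and the hippocampal identity list, so these lists are not separate. The part of these differences in the embryonic results was not tested beyond leaving libraries out.

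**Figure D3:**
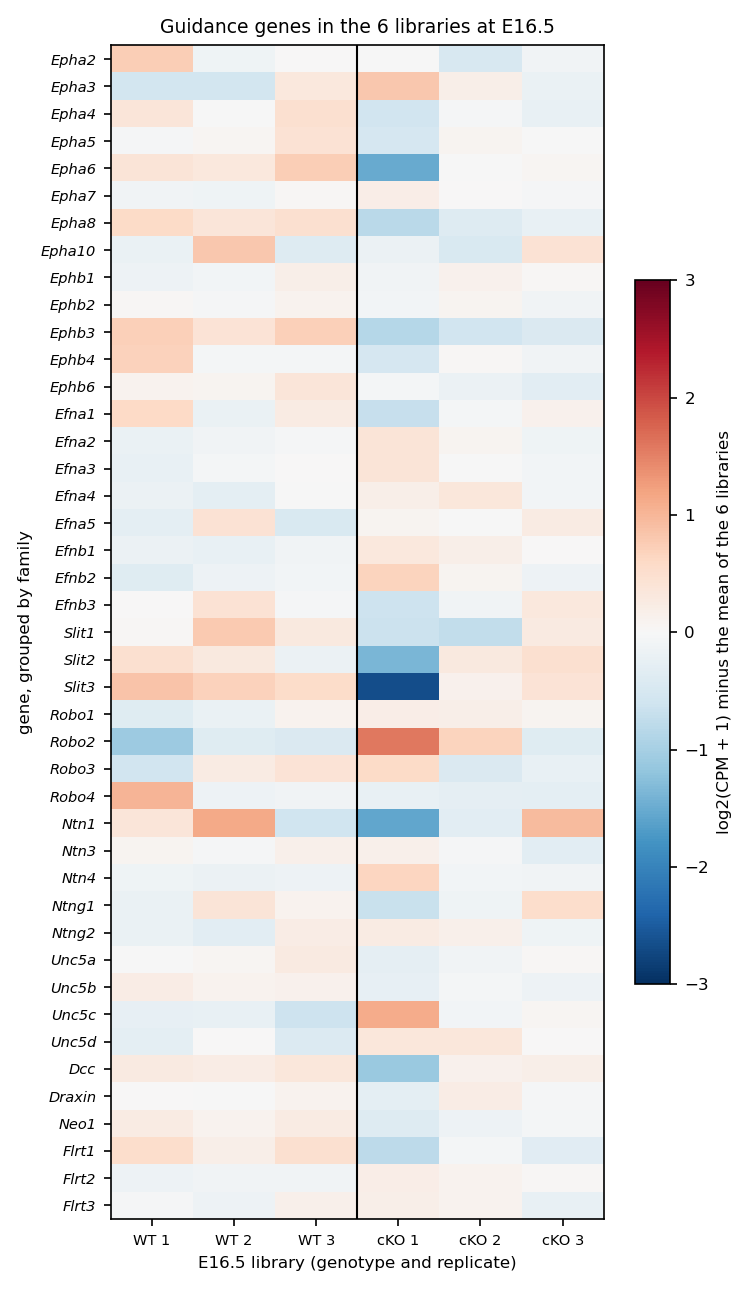
Log2(CPM + 1) of the 43 tested guidance genes in the 6 libraries at E16.5, minus the mean of the 6 (red higher, blue lower). The column of cKO replicate 1 holds the deepest colours, such as Slit3 and Dcc in blue and Robo2 in red, while Ephb3 and Epha8 are red in all 3 WT columns and blue in all 3 cKO columns.

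Whether the cKO effect differed between ages was tested in 1 fit of all 10 libraries. It differed in 3 members, Ephb2, Draxin and Ephb1, each lower at P21 relative to the embryonic effect, and no member was called in the other direction. Called or not, 24 members had a positive and 21 a negative difference. The same contrast called 0.738% of 18979 genes lower and 0.427% higher, and with upper-quartile scaling its calls changed from 140 lower and 81 higher genes to 97 and 97. At an unadjusted p under 0.05, 8 members were lower and 5 higher, against 10.5% and 9.57% of all tested genes. DESeq2 called 4 members lower, adding Unc5b (adjusted p = 0.00603, against edgeR adjusted p = 0.0630), and 0 higher, against 4.50% and 2.51% of all genes. The difference in log2 effect was -0.88 for Ephb2 (SE 0.12, edgeR adjusted p = 0.0255), -1.77 for Draxin (SE 0.30, edgeR adjusted p = 0.0342) and -0.84 for Ephb1 (SE 0.16, edgeR adjusted p = 0.0482). At E16.5 Ephb2 was at 246, 236 and 258.5 CPM in WT and 228, 256 and 222 CPM in cKO, and Draxin at 275.5, 269 and 296 CPM in WT and 223, 317 and 266 CPM in cKO. Ephb1 was at 103, 108 and 130.4 CPM in WT and 107, 125 and 118 CPM in cKO. In all 3 genes the embryonic genotypes overlapped, as they did in Robo3 and Efnb3. For Robo3 the difference was -1.65 (SE 0.67, edgeR adjusted p = 0.222), which did not pass. All 3 calls held without cKO replicate 1 at E16.5. They were all lost (0 members lower) when WT replicate 1 or 2 or cKO replicate 2 at E16.5, or any single P21 library, was left out.

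The 2 ages differ in the level of these genes in WT as well, shown here without a test because the tables were deposited separately. On CPM scaled over all 10 libraries, 15 members were higher in both P21 libraries than in all 3 E16.5 libraries, 24 were lower and 6 overlapped, against 35.5% and 41.5% of 18979 genes for higher and lower. All 5 B-type Eph receptors, all 3 B-type ephrins, and Dcc, Neo1 and Draxin were lower at P21. Draxin had the widest drop, from 261, 254 and 282.5 CPM at E16.5 to 5.43 and 3.76 CPM at P21. Ephb2 went from 234, 222 and 247 CPM to 41.0 and 42.2 CPM. Robo3 went the other way, from 1.05, 2.57 and 2.99 CPM to 53.6 and 38.8 CPM, and Epha10 from 1.10, 3.10 and 0.832 CPM to 39.6 and 43.9 CPM. Slit1 and Slit3, and Unc5a, Unc5b and Unc5c, were also higher at P21. Of the 8 genes lower in cKO at P21, Robo3, Epha6, Unc5b and Ntn5 were thus higher in WT at P21 than in the embryo, and Ephb1, Ephb2, Efnb3 and Draxin lower.

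The ChIP-seq lists at 3 weeks were read at the 39 members with an annotated start, as peaks overlapping a window of 1 kb on either side. Dcc, Slit1, Ntn1, Unc5d, Efnb3 and Flrt1 were read over the gene body. With 1 library per genotype there is no replicate check, and peak numbers differ between the lists as a whole: 28234 H3K4me3 peaks in cKO and 25145 in WT, 24065 and 13006 for H3K27ac, and 15659 and 4124 for H3K27me3. Fold enrichments below are the authors' values. H3K4me3 was present at 36 of 39 member starts in each genotype, against 86.1% of the 12219 starts in WT and 87.7% in cKO. The starts without it were those of Robo4, Ntn5 and Ntng2. H3K27ac was present at 15 member starts in WT (38.5%, against 49.3% of all) and at 25 in cKO (64.1%, against 70.9%). It was in the cKO list only at 11 (28.2%, against 22.6%), namely Draxin, Efna1, Efna4, Efnb2, Epha3, Ephb3, Ephb6, Flrt2, Ntn4, Robo1 and Robo2. At Ntng1 it was in the WT list only (2.56%, against 0.933%).

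H3K27me3 peaks lay at the starts of 3 guidance genes in WT, Epha2, Ephb4 and Ntn4 (7.69%, against 2.93% of all genes), and at 17 in cKO (43.6%, against 14.0%). At 14 starts the peak was in the cKO list only (35.9%, against 11.1%). These were the Eph receptors Epha1, Epha8, Epha10, Ephb1, Ephb2 and Ephb3, the ephrins Efna3 and Efna5, the Slits Slit2 and Slit3, and Robo3, Unc5a, Unc5b and Draxin. No member start had the peak in WT only. The highest fold enrichments among the 14 were 9.62 at Efna3, 9.48 at Unc5b and 9.02 at Efna5, and the lowest were 3.88 at Slit3 and 4.21 at Epha1. At Epha2, marked in both genotypes, the value was 3.75 in WT and 12.5 in cKO.

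**Figure D4:**
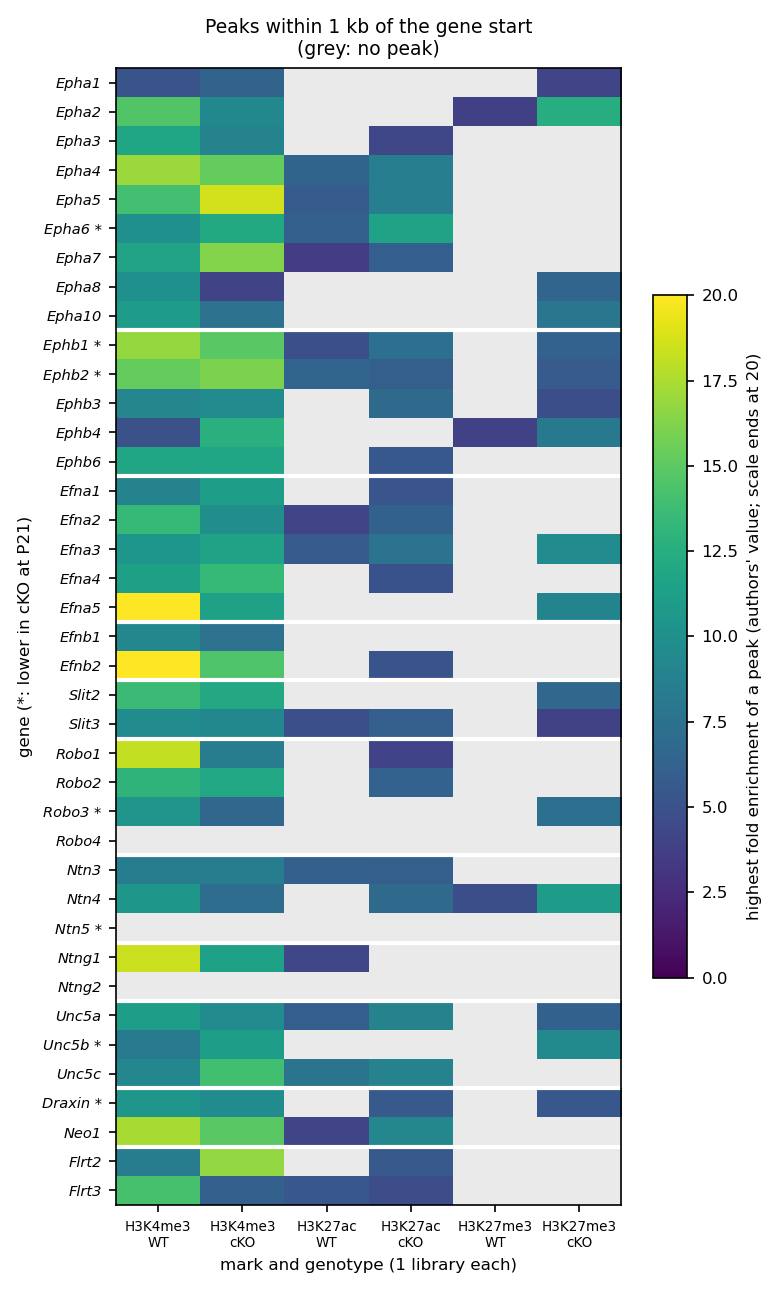
Highest fold enrichment (authors' value) of a peak within 1 kb of the start of each of 39 guidance genes, for 3 marks in WT and cKO, 1 library each; grey is no peak, the colour scale ends at 20, and an asterisk marks genes lower in cKO at P21. The H3K27me3 columns hold 3 marked genes in WT and 17 in cKO, and the H3K4me3 columns 36 each.

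Of the 7 members lower at P21 that have an annotated start, 5 had an H3K27me3 peak in the cKO list only (Robo3, Ephb1, Ephb2, Unc5b and Draxin), and Epha6 and Ntn5 had none. That is 71.4%, against 9 of 32 members (28.1%) that were not called. Over all tested genes the share was 23.3% of genes lower in cKO, 21.9% of genes higher and 10.3% of genes not called. Ephb1, Ephb2 and Draxin also carried an H3K27ac peak at the start in cKO, whereas Robo3 and Unc5b carried none in either genotype. The 14 members with the peak in cKO only had a median log2 change of -0.29 at P21, with 10 negative and 4 positive values. All 1354 such genes had a median of 0.00, and the 22 members without the peak had a median of -0.16. In the 250 bases before the start the 14 members held a median of 25 CG dinucleotides, the 22 without the peak 14.5, and all 1354 genes 16.

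Over the whole gene and 1 kb on either side, H3K27me3 peaks touched 5 of 45 members in WT (11.1%, against 3.72% of 15818 genes) and 22 in cKO (48.9%, against 18.1%). These shares were not matched for gene length, and a longer gene has more room for a peak. The covered length was 4.23 kb in WT and 52.1 kb in cKO. Unc5b had the most, with 15 peaks over 9329 bases in cKO and none in WT. Efna5 followed with 10 peaks over 6520 bases in cKO and 1 peak over 318 bases in WT, and Ntn1 had 4 peaks over 4128 bases in cKO and 2 over 959 bases in WT. Both Ephb1 and Ephb2 had none in WT, and in cKO they had 6 peaks over 2244 bases and 5 over 2263 bases. Slit1 and Unc5d, which have no annotated start here, had 2 and 3 peaks in cKO and none in WT. Efnb3 and Dcc had none in either genotype.

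**Figure D5:**
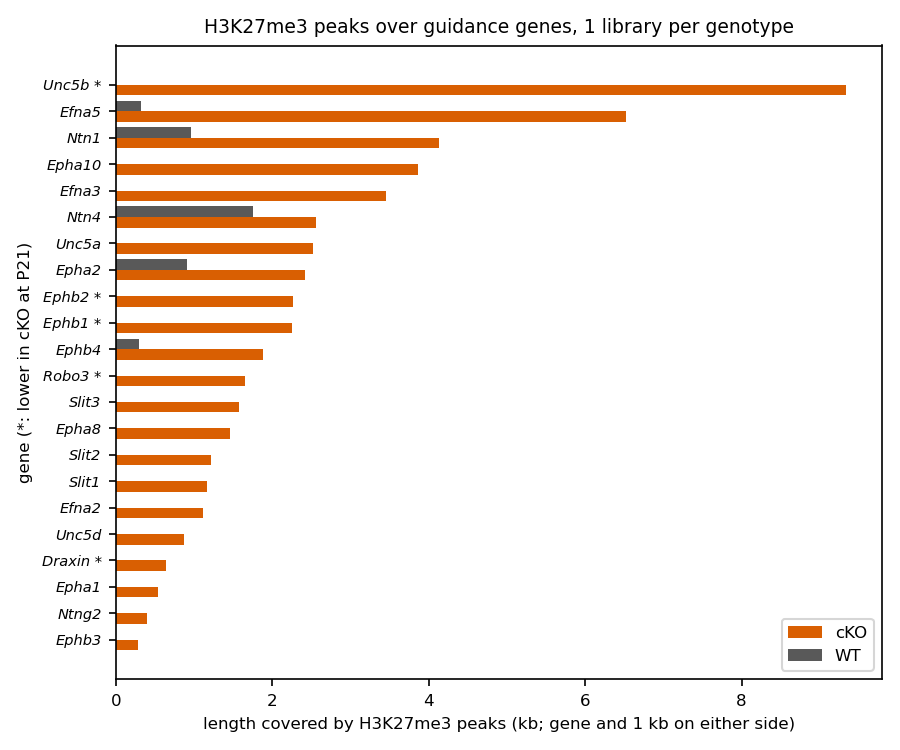
Length covered by H3K27me3 peaks over each guidance gene and 1 kb on either side, in kb, for the 22 genes with a peak in cKO (orange) and for WT (grey), 1 library per genotype; an asterisk marks genes lower in cKO at P21. Unc5b has the longest bar, 9329 bases in cKO with none in WT, and WT bars are present in 5 genes.

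The signalling partners of these receptors were read from a list of 49 genes (exchange factors such as Ngef, Tiam1, Trio and Kalrn, Src-family kinases, the Slit-Robo GTPase activators Srgap1, Srgap2 and Srgap3, latrophilins, teneurins and others). All 49 were tested at both ages. At P21, 1 was lower and 0 higher by edgeR, against 3.91% and 2.81% of all genes. At an unadjusted p under 0.05 the numbers were 5 and 0 (13.2% and 11.7% of all genes). DESeq2 called 2 lower and 0 higher, against 4.96% and 2.85% of all genes. The gene that passed edgeR's test was Dock1, an exchange factor for Rac that acts downstream of Dcc. It stood at 26.3 and 28.6 CPM in WT and 15.7 and 14.7 CPM in cKO, for a log2 fold change of -0.85 (SE 0.13, edgeR adjusted p = 0.0116). The list's median log2 change was -0.10, against 0.01 over all tested genes. In the embryo edgeR called 0 of 49 in either direction, against 0.112% of all genes lower and 0.0118% higher. An unadjusted p under 0.05 was reached by 6 higher and 5 lower genes (9.13% and 11.5% of all genes). DESeq2 called 2 higher and 0 lower, against 2.09% and 4.26% of all genes, and the list's median was 0.06.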

How the data were processed

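RNA was measured in 10 libraries and histone marks in 8 ChIP-seq libraries, grouped by their titles. The authors deposited estimated counts per gene, and the submitters' processing notes name Salmon 1.0.0 and the build GRCm38. Their deposited DESeq2 1.26.0 tables hold log2 fold changes, p-values, a test score and a mean signal per gene. Reads of ChIP-seq were aligned with Bowtie2 2.3.5.1 per the submitters' processing notes, which name MACS2 2.2.5, while peaks were called with MACS 2.2.7.1 at a q-value limit of 0.01 against the input of the same genotype, per the file headers. Each deposited peak has a pileup signal, a fold enrichment ratio and −log10 p-values and q-values, per the file headers, and 1 library was used per list. The sources used here do not say how transcripts were combined into genes.

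Before fitting, these estimates were rounded to integers, and 20.8% to 22.5% of values per library were not whole. Each age was fitted alone with edgeR 4.0.16 (R 4.3.3; filterByExpr, TMM, robust quasi-likelihood test, Benjamini-Hochberg adjustment over all tested genes, threshold 0.05), and the difference between ages as a contrast in 1 fit of 10 libraries. Each SE is an approximation computed from the log2 change and its F value. DESeq2 1.42.0, other scalings, no filter on low counts, a replicate term, sex and leaving out each library were the alternatives. Gene starts and coordinates came from RefSeq tables (GRCm38.p6), and a start counted as marked when a peak overlapped it within 1 kb by at least 1 base. Values per library are given for members past the threshold by edgeR or DESeq2 at either age or in the difference, and for the member of each family with the lowest p at P21. Other members named with values (Ephb4, Epha2, Robo4, Epha4 at P21, Ntn1, and the genes shown for cKO replicate 1 or for WT levels) were chosen after their values were seen. The members and all gene lists were chosen with earlier results of these data known. Fits were tested on simulated data.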

Additional observations from a re-analysis of the deposited data

Results flagged for a closer look

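The cKO effect differed between the ages in 3 guidance genes by the test of the difference itself (edgeR, all 10 libraries). The log2 effect at P21 minus that at E16.5 was -0.88 for Ephb2, -1.77 for Draxin and -0.84 for Ephb1, and each gene was lower in both cKO libraries at P21 while the genotypes overlapped at E16.5. The calls depended on the fit. With a replicate term, or without WT replicate 1, WT replicate 2 or cKO replicate 2 at E16.5, 0 members were called lower. Over all alternatives the difference stayed between -0.94 and -0.81 for Ephb2, -2.02 and -1.49 for Draxin, and -0.95 and -0.77 for Ephb1. Age, the separately deposited tables and the composition of the tissue at each age cannot be told apart in this contrast.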

How the results depend on the processing

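Of the 8 members lower at P21, Ephb1, Ephb2 and Unc5b passed under all 10 alternatives. Robo3 missed the threshold in the fit of all 10 libraries (edgeR adjusted p = 0.110) and Draxin without WT replicate 1 (0.0737), Epha6 and Efnb3 under 5 alternatives each and Ntn5 under 7. The number lower at P21 was 4 in the fit of all 10 libraries (350 of 18979 genes) and 5 with upper-quartile scaling (519 of 17407 genes). The number higher was 2 with no filter on low counts (921 of 31706 genes). Both numbers moved in the fits that left out 1 library, where the members' median log2 change was -0.18 to -0.13. At E16.5 the number lower was 5 with DESeq2, 3 with DESeq2 without cKO replicate 1 (added after seeing the data), 1 in the fit of all 10 libraries and 2 with no filter, and the number higher was 2 with DESeq2. With sex as a covariate it was 0 in both directions. For the difference between ages the number lower was 0 to 3 over the fits that left out 1 library. Whether same-numbered libraries were paired cannot be told from the values. Their deviations from the group means correlated at -0.0320 at P21 and at -0.0206, 0.132 and -0.115 at E16.5. With 2 libraries per genotype, the P21 value for differently numbered libraries is the same with its sign reversed. The value of 0.132 was the highest of all WT and cKO pairs at E16.5. With a replicate block 5 members were lower at P21, 0 at E16.5 and 0 in the difference. Same-numbered libraries were of the same sex by their Xist counts, so that at P21 number and sex cannot be told apart. Under the block Efnb3, Epha6 and Ntn5 missed the threshold (edgeR adjusted p = 0.0902, 0.0677 and 0.0646). Over all tested members and alternatives, 11 members at P21, 9 at E16.5 and 11 in the difference changed sign at least once, none of them past the threshold in the edgeR test of that comparison. At the gene starts, a 5 kb window, a −log10 q of at least 5 or an overlap of 100 bp gave 15, 13 and 14 members with H3K27me3 in the cKO list only. With 2 libraries per genotype, members of a few counts such as Ntn5, Efna4 and Epha1 are weakly resolved, and with 1 ChIP-seq library per genotype no difference in peaks has a replicate check.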
